A study of Mus musculus with 1699 samples.

Results

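Vip-high dopamine neurons were taken as sorted midbrain cells with an RPKM over 150 for Vip, the gene of vasoactive intestinal peptide. RPKM is a read number corrected for how long the gene is and how deeply the cell was sequenced. The rule was applied to heterozygous cells of embryonic day 18.5 (E18.5) and of postnatal days 1 (P1), 7 (P7) and 90 (P90) with more than 100000 reads, and 72 of 1020 such cells met it, out of 1699 cells in the whole series. They were 18, 26, 18 and 10 cells of the 4 stages, in order of age. Apart from the read minimum, the study's quality filters and its removal of cells clustering with oligodendrocytes did not enter this rule. They are described against the 460 cells of the same stages that had a Th RPKM over 150 and a Vip RPKM of 10 or less, here called Th-high cells (58.5%, 45.5%, 21.3% and 50.8% of the cells of the successive stages, and 40 cells at P7). Since Vip chose the members and Th chose the other cells, the levels of these 2 genes are descriptions. Slc6a3, the gene of the dopamine transporter, did not enter the choice. It was over 150 in 64.5%, 61.4%, 52.5% and 36.97% of Th-high cells at the successive stages. Th-high cells can thus include neurons of the study's branch with low Slc6a3, some of which express Th.

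All these cells came from Pitx3eGFP/wt mice, the heterozygotes of Pitx3tm1Mli, in which eGFP replaces Pitx3 at 1 allele and marks the cells that use this gene. Ventral midbrain was dissociated, GFP-positive cells were sorted, and each cell became a Smart-seq2 library of its own. Pups, embryos and P90 adults of several litters or animals are not told apart in the labels, so each stage counts as 1 sample and no test across animals could be made. By the study's methods, embryonic, early postnatal (P1 and P7) and P90 tissue were dissociated with different kits. By the labels, spike-in RNA was used for all E18.5 and P90 cells, some P1 cells and no P7 cell. Age can therefore not be told apart from plate, nor from dissociation except between P1 and P7, which shared a kit. Intervals below are 95% intervals of shares or of differences between shares, and they cover the counting of cells only.

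Dopamine neurons of the ventral midbrain make dopamine from tyrosine with the enzymes TH and DDC, load it into vesicles through VMAT2 (Slc18a2) and take it back up through DAT (Slc6a3). They fall into groups with different positions and targets. Vasoactive intestinal peptide is a secreted peptide cut from a larger precursor, and it acts on receptors of the secretin family that raise cyclic AMP. In the midbrain, neurons with this peptide are known mainly from the periaqueductal gray and the dorsal raphe.

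Some cells appear in the files under both P1 and P7. In 57 pairs, a P1 cell and a P7 cell whose titles carry the same number had nearly the same values, with a correlation of log2(RPKM + 1) over 19170 gene entries of 0.952 to 0.992. The highest correlation of any other 2 cells of the series was 0.855. The 57 pairs lie in one stretch of the numbering, in which 60 numbers occur at both stages, while none of the 49 shared numbers outside it gave such a pair. Which of the 2 stages these cells belong to is not known. Of the Vip-high cells, 2 at P1 and 2 at P7 form 2 such pairs, so that the 72 cells are 70 different ones. In the first pair Vip stood at 1231 and 1055, Th at 199.7 and 215.2 and Gipr at 0 in both, and in the second Vip stood at 4105 and 4017, Th at 1722 and 1613 and Gipr over 110 in both. The first pair also had Olig1 at 915.5 and 999.9 and eGFP at 44.3 and 61.7, and the second had Pitx3 and eGFP at 0, Slc6a3 and Nr4a2 below 1 and Ddc at 3.74 and 0.317. The pairs weigh most on the Th-high cells of P7, since they hold 28 of those 40 cells, and 26 of the Th-high cells of P1. Values without the paired cells (which leaves 24 members at P1, and 16 members and 12 Th-high cells at P7) are given below for the main results. Unless these cells are left out, intervals of means over E18.5, P1 and P7 count them at both stages.

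The probes that the study designed to find these cells in tissue sections target short stretches of the messages, and some targets are shown here. The RPKM values of this report are for whole genes. Vip lies on chromosome 10 (GRCm38, chr10:5639218-5647617, plus strand), and 2 of its probe targets are neighbouring stretches of exon 5 of 7 that cover a cleavage site of the precursor and the first part of the peptide behind it. The capitals in the first mark neighbouring codons for lysine and arginine, the kind of site at which peptide precursors are cut. Gipr (chr7:19156061-19166127, minus strand), the receptor for glucose-dependent insulinotropic peptide, is represented by a target across the junction of exons 13 and 14. Tdh (chr14:63492347-63509092, minus strand), the mitochondrial enzyme L-threonine dehydrogenase, is represented by a target across the junction of exons 3 and 4. In the last 2 the capitals mark the last base of one exon and the first base of the next. All 4 lie in coding sequence, while a further Gipr target, not shown, does not.
Vip target at chr10:5643999-5644038: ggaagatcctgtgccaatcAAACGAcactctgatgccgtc
Vip target at chr10:5644039-5644078: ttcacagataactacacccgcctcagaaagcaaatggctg
Gipr target between chr7:19157542 and chr7:19157658: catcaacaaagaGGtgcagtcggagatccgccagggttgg
Tdh target between chr14:63497005 and chr14:63497626: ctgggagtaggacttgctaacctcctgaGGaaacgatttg

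Vip, by which the cells were chosen, is given first as a description. Vip RPKM in E18.5 members ran from 154.6 to 5820 with a median of 1481, and in P1 members from 306.2 to 11686 with a median of 2874. In P7 members it ran from 1055 to 19995 with a median of 6420, and in P90 members from 366.2 to 33177 with a median of 10492. The medians stood in the order of age, while the ranges overlapped between all stages. Vip took a median of 0.193%, 0.383%, 0.802% and 1.23% of a member's reads at the successive stages, and up to 4.17% in 1 P90 cell. Ranked by RPKM within its cell, Vip had a median rank of 24, 13, 3.5 and 2, and in single cells ranks as low as 870 in E18.5 cells and 33 in P7 cells, with the lowest rank of P1 and that of P90 between these.

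Few cells lay near the threshold. The 3 members just inside it had RPKM values of 154.6, 306.2 and 318.3, and the 3 cells just outside it 130.8, 116.3 and 92.4. Vip-high cells made up 9.57% of the cells (5.77 to 14.7) both at E18.5 and at P7, 8.15% (5.39 to 11.7) at P1 and 3.08% (1.49 to 5.59) at P90. Without the paired cells it was 9.16% at P1 (5.96 to 13.3) and 12.2% at P7 (7.15 to 19.1). No cell at E13.5 or E15.5 passed, and the limits set by 3 counts are 2.14% and 2.13% (exact upper bounds 2.60% and 2.58%), and the highest Vip RPKM at these stages was 100.3. The cells counted differed in kind between stages, since Olig1, an oligodendrocyte-lineage gene, was over 10 in 4.26%, 21.3%, 57.4% and 0% of them. Among the cells with Olig1 of 10 or less, Vip-high cells made up 8.33% (4.74 to 13.4), 9.96% (6.55 to 14.4), 18.75% (10.9 to 29.03) and 3.08% (1.49 to 5.59) at the successive stages, so that the equal shares of E18.5 and P7 hold for all cells alone. The sort and the survival of cells after dissociation can set such shares, and their part was not tested. Between plates the share ranged from 6.32% (2.35 to 13.2) to 12.9% (6.85 to 21.5) at E18.5, and at P1 it was 8.51% (3.75 to 16.1) with spike-in and 8% (4.81 to 12.4) without. All 4 plates of P90 held members, 2 or 3 each.

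**Figure D1:**
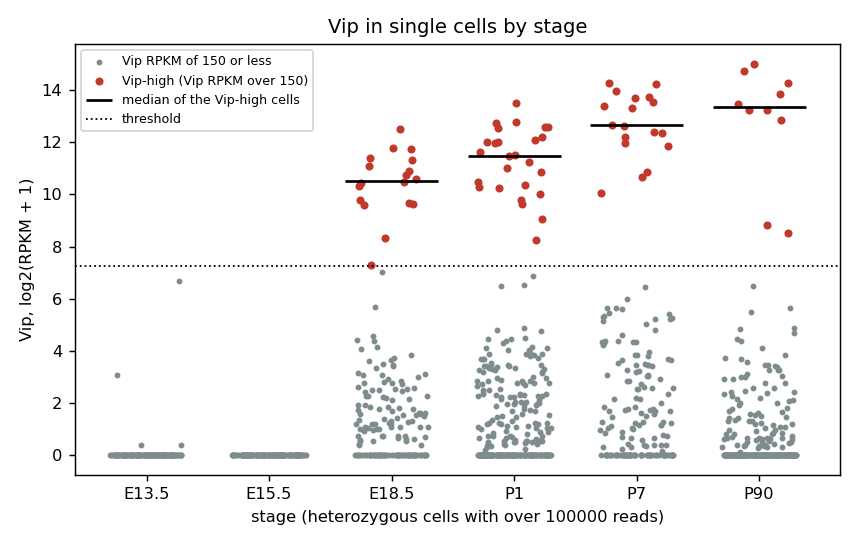
Vip in each heterozygous cell with over 100000 reads, as log2(RPKM + 1), by stage. Red points are the Vip-high cells (18, 26, 18 and 10), grey points the other cells, bars the medians of the red points and the dotted line the threshold of RPKM 150. No cell passed it at E13.5 or E15.5, and the medians from E18.5 to P90 are 1481, 2874, 6420 and 10492 RPKM.

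The label of dopamine neurons was checked first with Th, which the rule for members did not use. Th was over an RPKM of 150 in all 62 members of the 3 younger stages and in 9 of 10 at P90 (90%, 55.5 to 99.75). Its RPKM in the members ran from 566.2 to 3453 (median 1903) in E18.5 cells, from 199.7 to 3583 (median 1687) in P1 cells, from 215.2 to 2580 (median 1863) in P7 cells and from 0 to 6450 (median 4050) in P90 cells. The exception was a P90 cell with Th at 0 and Vip at 453.6, which also had Gad2 at 735.7, Slc32a1 at 70.7, Slc17a6 at 261.9, Ddc at 399.3 and Nr4a2, a dopamine neuron factor, over 100. It was the single member in which Gad2, a GABA-synthesising enzyme, passed 10 at P90, and Gipr, Tdh and Prkcd were all at 0 in it. Of the other defining genes of dopamine neurons, Nr4a2 was over 10 in 18, 24, 16 and 6 members, Ddc in 16, 17, 13 and 10, Slc18a2 in 15, 22, 14 and 10 and Slc6a3 in 14, 18, 16 and 8 of 18, 26, 18 and 10.

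Other cell types were looked for with lists of their markers. All 72 members had at least 3 of 5 neuron markers (Snap25, Stmn2, Rbfox3, Syt1, Tubb3) over 10. No member passed 10 for any of the 3 serotonin neuron markers (Tph2, Slc6a4, Fev), and the summed RPKM of the list was at most 0, 0.141, 0.595 and 0.633 at the successive stages, with Fev at 0 in every member. At least 3 of 11 oligodendrocyte-lineage markers were over 10 in 1, 1, 4 and 0 members of the successive stages, against 5, 10, 6 and 0 of the Th-high cells. The counts of this paragraph take paired cells at both P1 and P7, among them the pair with Olig1 at 915.5 and 999.9. Their summed RPKM in members reached 154.1, 2059, 2177 and 57.02 at the successive stages, against 162.2, 3625, 4955 and 3630 in Th-high cells. Olig2 and Sox10 were at 0 in all members at E18.5 and P90. Astrocyte markers reached 3 of 5 over 10 in 2 members, both of P7, and no member had 3 microglia or endothelial markers over 10, whereas 1 Th-high cell at P1 and 1 at P7 had a summed microglia RPKM of 14709 and 17006. Leaving out the cells with 3 oligodendrocyte markers kept 66 members, and the 30 genes chosen below by rule stayed past 1 log2 unit.

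Depth was alike, while the number of genes detected was not. Members had medians of 1018505, 1754102, 2226856 and 1918747 reads on genes, and Th-high cells 1144969, 1610153, 2126467 and 1802403. Gene entries with a read had medians of 8292, 7956, 9055 and 8522 in members and of 7569, 7478, 6729 and 8992 in Th-high cells. Over the 7677 entries compared, the median difference of mean log2(RPKM + 1), members minus Th-high cells, was 0.21, 0.17, 0.66 and -0.01 from the youngest to the oldest stage. At P7 a gene's higher level in the members is therefore to be read against 0.66, and the part of the number of genes detected in the P7 differences was not tested. Without the paired cells this median was 0.83 at P7, and without all P1 and P7 cells of that stretch of the numbering it was 0.29.

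Gipr, Tdh and Prkcd, the 3 genes given as markers beside Vip, were all found in a larger share of the members. All 3 were chosen with earlier results of these data known, so their direction is no independent evidence. Gipr, a receptor that raises cyclic AMP, was over an RPKM of 10 in 88.9%, 84.6%, 88.9% and 60% of members and in 15.5%, 10.3%, 10% and 6.06% of Th-high cells. In the members its RPKM ran from 0 to 379.5 (median 105.2) in E18.5 cells, from 0 to 399.2 (median 101.2) in P1 cells, from 0 to 237.7 (median 111.9) in P7 cells and from 0 to 292.3 (median 44.7) in P90 cells, and the median of the Th-high cells was 0 at each stage. The groups overlapped at every stage, since 2, 4, 2 and 4 members were at 10 or below. The difference in share, as the mean over E18.5, P1 and P7 with equal weight, was 75.5 percentage points (62.5 to 81.3), and 53.9 points (24.8 to 77.3) at P90.

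Tdh, which breaks down threonine, was over 10 in 61.1%, 69.2%, 83.3% and 30% of members and in 3.64%, 2.76%, 0% and 7.27% of Th-high cells. Its median in members was 35.1, 59.9, 72.4 and 0 RPKM, and the highest value 262.2, 180.6, 254.6 and 118.3. None of the 40 Th-high cells at P7 passed 10, for which 3 counts allow up to 7.50%. The mean difference over the 3 perinatal stages was 69.1 percentage points (56.2 to 77.7), and that at P90 was 22.7 points (2.86 to 53.2).

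Prkcd, the delta form of protein kinase C, marked a smaller part of the group. It was over 10 in 27.8%, 46.2%, 66.7% and 30% of members and in 1.82%, 4.83%, 7.50% and 1.21% of Th-high cells, with a highest member value of 184.8, 198.2, 191.9 and 124.9 RPKM. Its median in members was 0 at E18.5 and P90, 0.887 at P1 and 52.2 at P7. The mean difference over the 3 stages was 42.2 percentage points (30.3 to 53.7), and that at P90 was 28.8 points (9.32 to 59.1).

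Without the paired cells the 3 mean differences were 75.7 points (60.1 to 81.9) for Gipr, 74.3 points (59.3 to 82.1) for Tdh and 46.1 points (31.4 to 57.5) for Prkcd. Within plates, Gipr differed by 63.3 points (32.6 to 77.98) and 89.1 points (48.6 to 94.9) on the plates of E18.5, and by 76.97 points (40.8 to 88.7) and 73.1 points (49.1 to 84.9) in the P1 cells with and without spike-in. Prkcd on the second E18.5 plate was the one case whose interval included 0, with 1 of 6 members and 2 of 55 Th-high cells over 10.

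The markers did not all occur in the same cells. Of the 72 members, 25 had all 3 over 10, 24 had 2, 16 had 1 and 7 had none. Gipr and Tdh occurred together in 44 members, Tdh without Gipr in 3 and Prkcd without Gipr in 3. All 3 markers were found in 4, 7, 12 and 2 members of the successive stages. Low messages are often missed in single cells, and the part of missed detection in these counts was not tested.

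**Figure D2:**
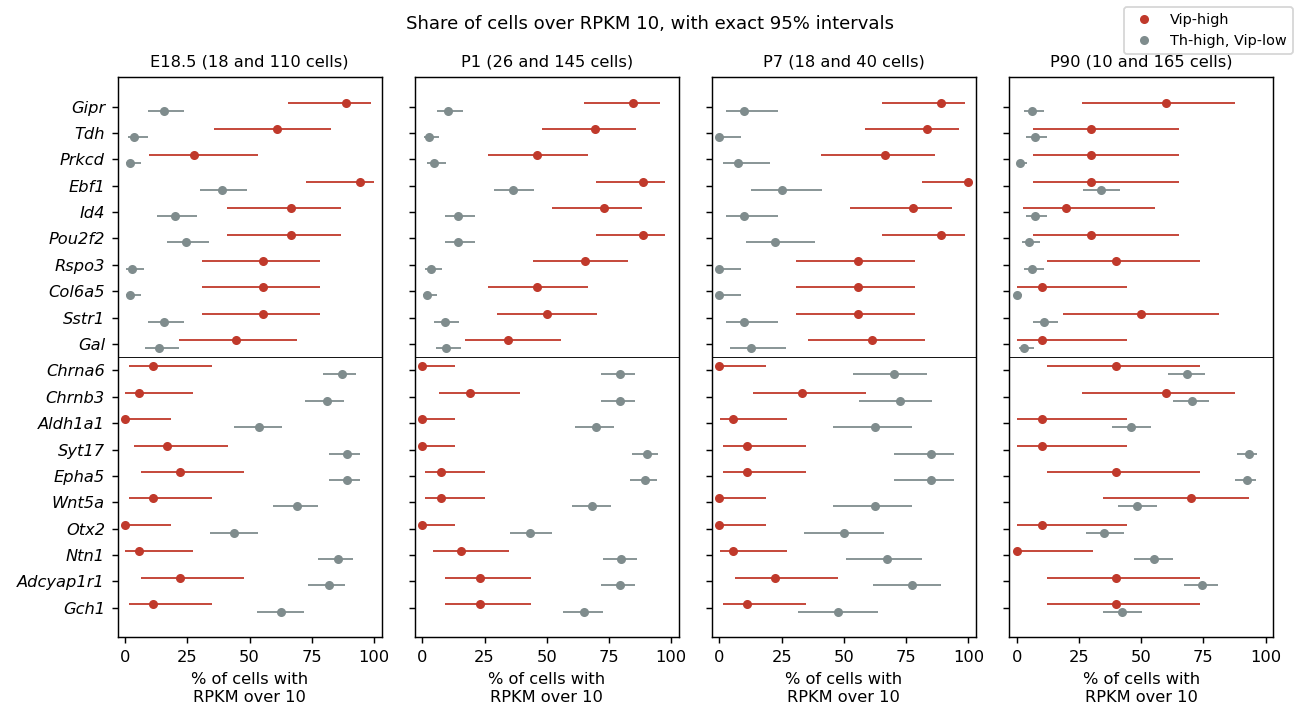
Share of cells with an RPKM over 10 for 20 genes, as points with exact 95% intervals, in Vip-high cells (red) and Th-high, Vip-low cells (grey) at each stage. Genes above the line include the markers Gipr, Tdh and Prkcd. In the first 3 panels Gipr stood at 88.9%, 84.6% and 88.9% in red against 15.5%, 10.3% and 10% in grey, and below the line Chrna6 stood at 11.1%, 0% and 0% against 87.3%, 79.3% and 70%.

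Cells with a Vip RPKM over 10 and up to 150 were 13, 30, 34 and 14 in number. At each stage a smaller share of them than of the members passed 10 for Gipr, Tdh and Prkcd. The exact intervals of both groups overlapped for Gipr and Prkcd at E18.5 and for Tdh and Prkcd at P90. None of them had Tdh over 10. Gipr was over 10 in 6, 4, 2 and 0 of them in the same order, Prkcd in 1, 1, 3 and 0, and Th was over 150 in 11, 12, 3 and 4 of them. Olig1, which marks the oligodendrocyte lineage, was over 10 in 1, 7, 21 and 0 of them. At P7 this was 61.8% (43.6 to 77.8), beside 61.8% (53.045 to 69.96) of the P7 cells with less Vip and 16.7% (3.58 to 41.4) of the members.

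Next, all genes were compared by the difference of mean log2(RPKM + 1) between members and Th-high cells, stage by stage and without a test. Of 7677 entries with a mean RPKM of at least 10 in either group at each of the 3 perinatal stages, 13.4%, 10.9% and 35.4% were higher in members by more than 1 log2 unit, and 5.93%, 5.52% and 3.58% were lower by as much. Genes called higher or lower at the 3 stages below are past 1 log2 unit at each of them. At all 3 stages, 3.19% of the entries (Vip included) were higher and 1.63% lower. Subtracting the median difference of each stage gave 1.78% higher and 2.81% lower, so that the balance of the directions depends on this step, while the 30 genes chosen next remained past 1 log2 unit. Without the paired cells the 30 genes also remained past it, but the wider sets did not stay whole. Of all genes called higher and lower, 84.5% and 68.8% were still called without those pairs, 59.6% and 72% without the whole stretch of numbers that holds them, and 55.9% and 100% less the stage medians. Of the 48 genes called on the gene lists used here, Cacna1e, Grp, Nr4a2, Ntrk2 and Scg2 were no longer past 1 log2 unit at P7 without the pairs, and Kcnip4, Nrsn2, Ptprn2, Grp, Nfix, Ntn1 and Scg2 without the stretch of numbers. Less the stage medians, all 48 stayed past it. Lpl without the pairs, and Lpl, Nfib and Ntn1 without the stretch of numbers, fell under the minimum mean RPKM of 10 and were no longer called.

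The 15 genes with the largest difference upwards, ranked by the smallest of the 3 stages, were Gipr, Ebf1, Tdh, Lmo3, Anxa5, Igsf8, Id4, Rspo3, Calb1, Pou2f2, Spock1, Col6a5, Cited2, Dlk1 and Syn2. They include regulators of transcription. Ebf1, a helix-loop-helix factor of neuronal differentiation, was over 10 in 94.4%, 88.5% and 100% of members at the 3 stages and in 39.1%, 36.6% and 25% of Th-high cells, with medians of 147.1, 136.6 and 112.5 RPKM in members. Lmo3, a LIM-domain cofactor, had medians of 281.5, 344.2 and 329.5 in members and of 11.2, 2.37 and 0.353 in Th-high cells. The inhibitor of DNA binding Id4 was over 10 in 66.7%, 73.1% and 77.8% of members and 20%, 14.5% and 10% of Th-high cells. For the POU factor Pou2f2 the shares were 66.7%, 88.5% and 88.9% and 24.5%, 14.5% and 22.5%, and for the coactivator-binding protein Cited2 they were 55.6%, 73.1% and 66.7% and 20%, 14.5% and 7.50%. With the limit set at an RPKM of 50, the mean difference in share went from 60.8 to 30.4 points for Pou2f2 and from 51.1 to 24.4 points for Cited2.

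Others encode secreted, matrix and membrane proteins. Rspo3, a secreted amplifier of Wnt signalling, was over 10 in 55.6%, 65.4% and 55.6% of members but in only 2.73%, 3.45% and 0% of Th-high cells. Col6a5, a collagen chain, was over 10 in 55.6%, 46.2% and 55.6% and 1.82%, 2.07% and 0%. At a limit of 50 the mean difference in share went from 56.8 to 21.2 points for Rspo3 and from 51.1 to 12.5 points (6.59 to 24.3) for Col6a5. These 2 genes, like Gipr and Tdh, were at or near 0 in most Th-high cells. Dlk1, a membrane protein related to Notch ligands, was present in both groups, with medians of 440.4, 523.02 and 272.2 RPKM in members and 112.3, 59.4 and 41.5 in Th-high cells. Calb1, the calcium-binding protein calbindin that marks part of the ventral tegmental dopamine neurons, had medians of 356.3, 489.6 and 418.4 and 81.5, 104.9 and 118.3. Anxa5 (an annexin), Igsf8 (an immunoglobulin-domain membrane protein), Spock1 (a matrix proteoglycan) and Syn2 (a synapsin) completed the list, with log2 differences between 2.47 and 5.73.

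Of the 15 genes with the largest difference downwards, the 14 reported here were Chrna6, Aldh1a1, Syt17, Epha5, Wnt5a, Chrnb3, Ntn1, Cx3cl1, Adcyap1r1, Otx2, Cdh11, Gch1, Tmem35a and Chrna4. They include subunits of nicotinic acetylcholine receptors. Chrna6, a subunit typical of dopamine terminals, was over 10 in 2, 0 and 0 members at the 3 stages and in 87.3%, 79.3% and 70% of Th-high cells, whose medians were 416.2, 451.1 and 251.6 RPKM. The subunit Chrnb3 was over 10 in 5.56%, 19.2% and 33.3% of members and 80.9%, 79.3% and 72.5% of Th-high cells, and Chrna4 in 22.2%, 19.2% and 16.7% and 62.7%, 57.9% and 57.5%. Tmem35a, a chaperone for the assembly of nicotinic receptors, was over 10 in 61.1%, 46.2% and 44.4% and 93.6%, 84.1% and 72.5%. The widely used subunit Chrnb2 had a different pattern, with 94.4%, 100% and 100% and 88.2%, 85.5% and 90%. Without the paired cells Chrnb3 at P7 was over 10 in 37.5% of members and 50% of Th-high cells.

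Aldh1a1, an aldehyde dehydrogenase of ventral substantia nigra dopamine neurons, was over 10 in 0, 0 and 1 members and in 53.6%, 69.7% and 62.5% of Th-high cells. In members its RPKM did not exceed 8.53, 8.47 and 37.4 at these stages. Syt17, an atypical synaptotagmin, was over 10 in 3, 0 and 2 members and 89.1%, 90.3% and 85% of Th-high cells, and the ephrin receptor Epha5 in 4, 2 and 2 members and 89.1%, 89.7% and 85%. The transcription factor Otx2, which marks part of the ventral tegmental area, was over 10 in no member at the 3 stages, for which 3 counts allow up to 16.7%, 11.5% and 16.7%, and in 43.6%, 43.4% and 50% of Th-high cells. Ntn1 and Wnt5a, both secreted cues for growing axons, were over 10 in 1, 4 and 1 and in 2, 2 and 0 members, against 85.5%, 80% and 67.5% and 69.1%, 68.3% and 62.5% of Th-high cells. Ntn1 was the one gene of the 30 that fell short of 1 log2 unit (-0.85 at P7) once all P1 and P7 cells of the stretch of numbers that holds the pairs were left out, which leaves 13 members and 7 Th-high cells at P7. Other P7 differences moved by more than 1.5 times in that setting. Among the higher genes, Calb1 went from 3.44 to 1.09, Syn2 from 3.08 to 1.11, Pou2f2 from 2.90 to 1.62 and Lmo3 from 5.33 to 3.52. Among the lower ones, Aldh1a1 went from -6.24 to -1.82, Chrnb3 from -3.41 to -1.33, Otx2 from -3.58 to -1.81, Chrna6 from -6.01 to -3.65 and Wnt5a from -4.49 to -2.55, while Cx3cl1 went further from 0, from -3.14 to -5.65. Cx3cl1 (a chemokine) and Cdh11 (a cadherin) had mean differences of -54.6 percentage points (-62.2 to -41.1) and -62.8 percentage points (-68.5 to -50.9), and for Cx3cl1 -63.2 points (-70.4 to -47.3) once the paired cells were left out. For an RPKM over 50 the difference of Cdh11 was -33.01 points (-39.7 to -21.6) and that of Cx3cl1 -40.5 points (-47.7 to -27.7). That of Ntn1 went from -68.8 points to -40.5 points (-47.02 to -29.6).

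**Figure D3:**
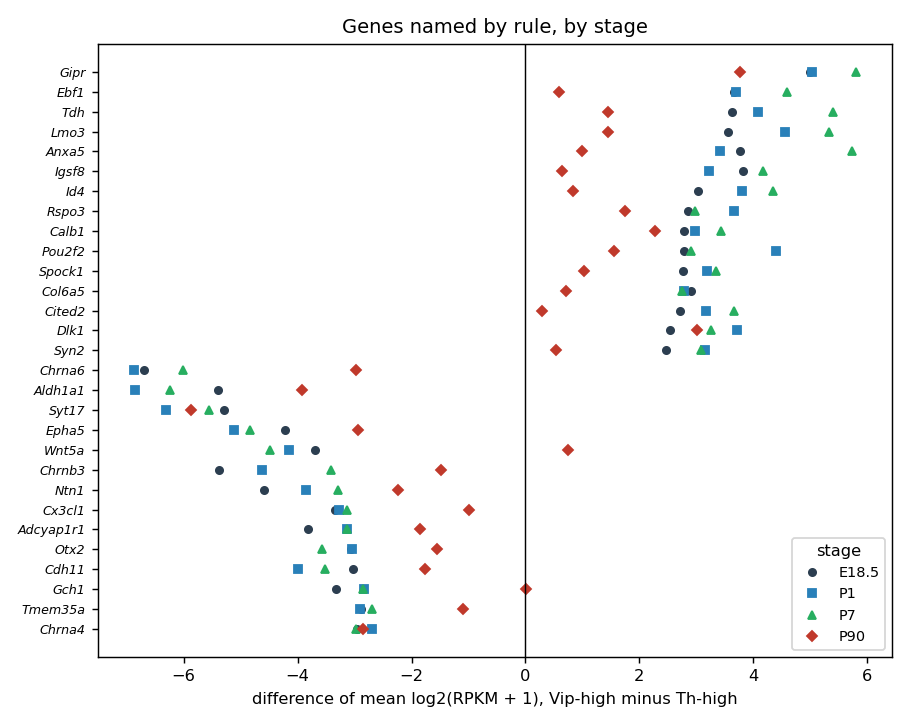
Difference of mean log2(RPKM + 1), Vip-high minus Th-high cells, for the 15 higher and 14 lower genes named in the text, one row per gene and one symbol per stage. P90 (red diamonds), which the choice did not use, lies nearer to 0 for most genes, at about 0 for Gch1 (0.00252) and on the other side of 0 for Wnt5a (0.75).

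P90 values had no part in the choice of these genes, but the rule for it was written with earlier results of these data known. The P90 values, from 10 members, are therefore a further description and not an independent check. All 15 genes of the upper list were higher in P90 members, 8 of them by more than 1 log2 unit, beside 49.1% of all entries higher by any amount and 8.18% by more than 1. Of the lower list 13 of 15 were lower, all 13 by more than 1, beside 50.9% and 11.2% of all entries. The 2 that were not lower were Wnt5a, over 10 in 7 of 10 members (48.5% of Th-high cells), and Gch1, over 10 in 4 of 10 (42.4%). Ebf1, over 10 in nearly every younger member, was over 10 in 3 of 10 at P90 and in 33.9% of Th-high cells. These 3 were also the P90 members with Prkcd over 10. The P90 members thus differed among themselves, and no change with age was tested. Of all genes other than Vip that were higher by more than 1 at the 3 earlier stages, 72.1% were higher at P90 too, and of the lower ones 84.8% were lower.

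The genes for making, storing and taking up dopamine formed no single pattern. Of the 9 genes on that list, Th included and all compared, 1 was higher at the 3 stages (Pcbd1) and 3 were lower (Ddc, Slc18a2, Gch1), beside 3.19% and 1.63% of all entries. Ddc, which makes dopamine from L-DOPA, had medians of 141.1, 64.3, 62.6 and 1057 RPKM in members at the 4 stages and of 743.98, 634.6, 568.2 and 764.9 in Th-high cells. The highest member stood at 897.2, 586.5 and 274.2 RPKM at the first 3 stages. P90 members ran from 399.3 to 1940, so that the lowest P90 member stood above all P7 members. Slc18a2, the vesicular monoamine transporter, had medians of 38.2, 49.4, 61.7 and 309.9 in members and 324.7, 256.1, 194.5 and 212.96 in Th-high cells. Without the paired cells, median Ddc at P7 was 83.9 in members and 251.4 in Th-high cells, and median Slc18a2 was 61.7 and 190.6. The log2 differences were -2.26, -3.58, -2.93 and 0.69 for Ddc and -2.83, -2.11, -1.87 and 0.60 for Slc18a2.

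Slc6a3, the dopamine transporter, was over 10 in 77.8%, 69.2%, 88.9% and 80% of members and 77.3%, 73.8%, 75% and 50.9% of Th-high cells, a mean difference over the 3 perinatal stages of 3.28 percentage points (-9.95 to 12.8). Its level was another matter. It passed 150 in 27.8% (9.70 to 53.5) and 26.9% (11.6 to 47.8) of members at E18.5 and P1 against 64.5% (54.9 to 73.4) and 61.4% (52.9 to 69.3) of Th-high cells, and in 55.6% (30.8 to 78.5) and 60% (26.2 to 87.8) at P7 and P90 against 52.5% (36.1 to 68.5) and 36.97% (29.6 to 44.8). Gch1, the first enzyme for the cofactor of TH, was over 10 in 2, 6, 2 and 4 members and 62.7%, 64.8%, 47.5% and 42.4% of Th-high cells. Pcbd1, which regenerates that cofactor, was higher in members, with medians of 173.1, 95.8, 163.2 and 297.96 against 40.6, 43.4, 16.5 and 136.4. The D2 receptor Drd2, through which dopamine neurons sense their own transmitter, was over 10 in 88.9%, 73.1%, 88.9% and 80% of members and 60%, 48.97%, 52.5% and 42.4% of Th-high cells. Its mean difference over the 3 perinatal stages went from 29.8 to 18.2 points (4.21 to 30.1) at a limit of 50. At P90 most Th-high cells had Slc6a3 of 150 or less. Their part in the P90 differences of Ddc, Slc18a2, Slc6a3 and Drd2 was not tested.

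**Figure D4:**
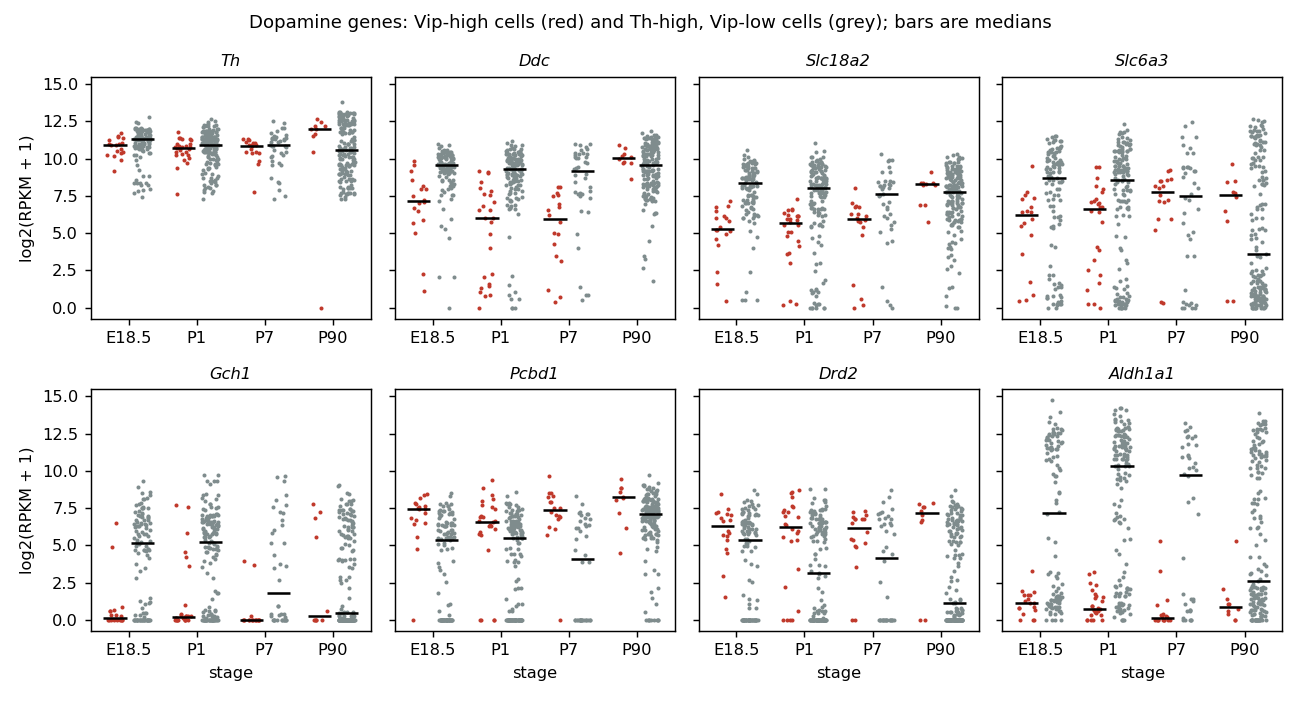
Levels of 8 dopamine-related genes as log2(RPKM + 1) in each Vip-high cell (red) and each Th-high, Vip-low cell (grey) at E18.5, P1, P7 and P90, with medians as bars. Th chose the grey cells. Median Ddc in red was 141.1, 64.3, 62.6 and 1057 RPKM, and Aldh1a1 was near 0 in nearly all red cells.

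Of 13 transcription factors of dopamine neurons 9 could be compared, with 3 lower at the 3 stages (Nr4a2, Otx2 and Foxp2) and none higher, beside 1.63% and 3.19% of all entries. Nr4a2, needed to form and keep dopamine neurons, was present in most members at a lower level, with medians of 130.6, 87.5, 51.8 and 42.6 RPKM against 262.2, 305.6, 327.7 and 121.9. Pitx3 itself, of which all these mice have 1 working copy, had medians of 30.6, 34.6, 33.1 and 8.60 and 83.8, 102.1, 117.4 and 6.59. Foxa2, Lmx1a and En1, which specify the midbrain dopamine fate, were over 10 in 18, 21, 15 and 7, in 17, 21, 17 and 3 and in 18, 26, 17 and 9 members. Their mean differences in share over the 3 stages were 17.99 percentage points (5.41 to 26.3), 28.6 percentage points (15.7 to 36.1) and 12.98 percentage points (2.33 to 19.03). The difference of Foxa2 varied with the cells and the limit used. It was 26.9 points (12.9 to 37.1) once the paired cells were left out, 12.4 points (-3.80 to 23.98) without E18.5, 16.8 points (-0.45 to 25.6) with the second E18.5 plate alone and 11.2 points (-0.63 to 18.3) for an RPKM over 1, and the last 3 intervals include 0.

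The marker lists that the study gave to its cell groups were chosen on these same cells, so their direction is no independent evidence. Their counts stand beside 3.19% of all entries higher and 1.63% lower. All 6 markers of its Vip group, Vip included, were higher (Id4, Gipr, Pou2f2, Tdh and Zfp804a besides). The zinc finger gene Zfp804a was over 10 in 44.4%, 34.6%, 77.8% and 0% of members and 12.7%, 8.97%, 5% and 12.1% of Th-high cells, and its mean difference went from 43.4 to 13.9 points at a limit of 50. Of the 6 markers of its Aldh1a1 group, 5 were compared and all 5 were lower (Aldh1a1, Nrp1, Kcnab1, Grp and Lpl). Without the paired cells Grp stood at -0.29 log2 units at P7, and Lpl fell under the minimum mean RPKM of 10. The lipase gene Lpl and the potassium channel subunit Kcnab1 were over 10 in none of the 62 members of the 3 stages. Of the factors of its branch with low Slc6a3, Nfib, Nfix and Tcf4 were lower among 4 compared, with Nfix over 10 in 0, 0, 2 and 0 members and 48.2%, 46.2%, 45% and 33.3% of Th-high cells. Without the stretch of numbers that holds the pairs, Nfib fell under that minimum and Nfix stood at -0.25 log2 units at P7. Of the markers shared by its cells with high Slc6a3, Dlk1 and Drd2 were higher among 5 compared.

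Other peptide genes were also found in members, in shares that varied with the stage, and no difference between stages was tested. Of 24 precursor genes besides Vip, 11 were compared, with 1 higher at the 3 stages (Gal) and 4 lower (Grp, Adcyap1, Scg2 and Cbln4), beside 3.19% and 1.63% of all entries. Without the paired cells Grp and Scg2 stood at -0.29 and 0.09 log2 units at P7. Galanin (Gal) was over 10 in 44.4%, 34.6%, 61.1% and 10% of members and 13.6%, 9.66%, 12.5% and 3.03% of Th-high cells, with member values from 0 to 609.96 with a median of 81.8 at P7. The precursor of nociceptin, Pnoc, which was on no list and was picked after its values were seen, was over 10 in 38.9%, 42.3%, 61.1% and 30% and 6.36%, 4.83%, 5% and 3.03%. Enkephalin (Penk) was over 10 in 5.56%, 11.5%, 50% and 0% of members and 18.2%, 19.3%, 12.5% and 14.5% of Th-high cells, and without the paired cells in 56.2% and 8.33% at P7. Crhbp, which binds corticotropin-releasing hormone, was over 10 in 0%, 19.2%, 61.1% and 30% of members and 4.55%, 8.97%, 5% and 17.6% of Th-high cells. Adcyap1, the gene of PACAP, the closest relative of vasoactive intestinal peptide, was over 10 in 0, 2, 0 and 0 members and in 43.6%, 42.8%, 42.5% and 64.8% of Th-high cells, and its mean difference went from -40.4 to -19.7 points at a limit of 50.

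At P90 the peptide cholecystokinin (Cck) was over 10 in all 10 members, and its RPKM ran from 148.2 to 14777 with a median of 3408, against a median of 11.8 in Th-high cells. The difference in share was 49.7 points (20.9 to 57.2). At E18.5, P1 and P7 the medians of Cck were 142.8, 116.7 and 108.2 in members and 387.04, 213.96 and 348.6 in Th-high cells, which gave a mean difference in share of 4.72 percentage points (-8.35 to 13.8). Neuropeptide W (Npw) was over 10 in 6 of 10 members at P90, and in 12.1% of Th-high cells, a difference of 47.9 points (18.6 to 71.4). At the earlier stages Npw was over 10 in 1, 2 and 1 members. Of the 10 members at P90, 3 had both Npw and Gipr over 10, 3 had Npw alone, 3 had Gipr alone and 1 had neither. Cck ran from 3405 to 14777 in the 6 members with Npw, and stood at 148.2, 165.6, 806.9 and 984.5 in the other 4. Ebf1, Prkcd and Pnoc were each over 10 in the 3 members with Gipr alone and in none of the 6 with Npw. P90 values over all 10 members therefore pool unlike cells.

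**Figure D5:**
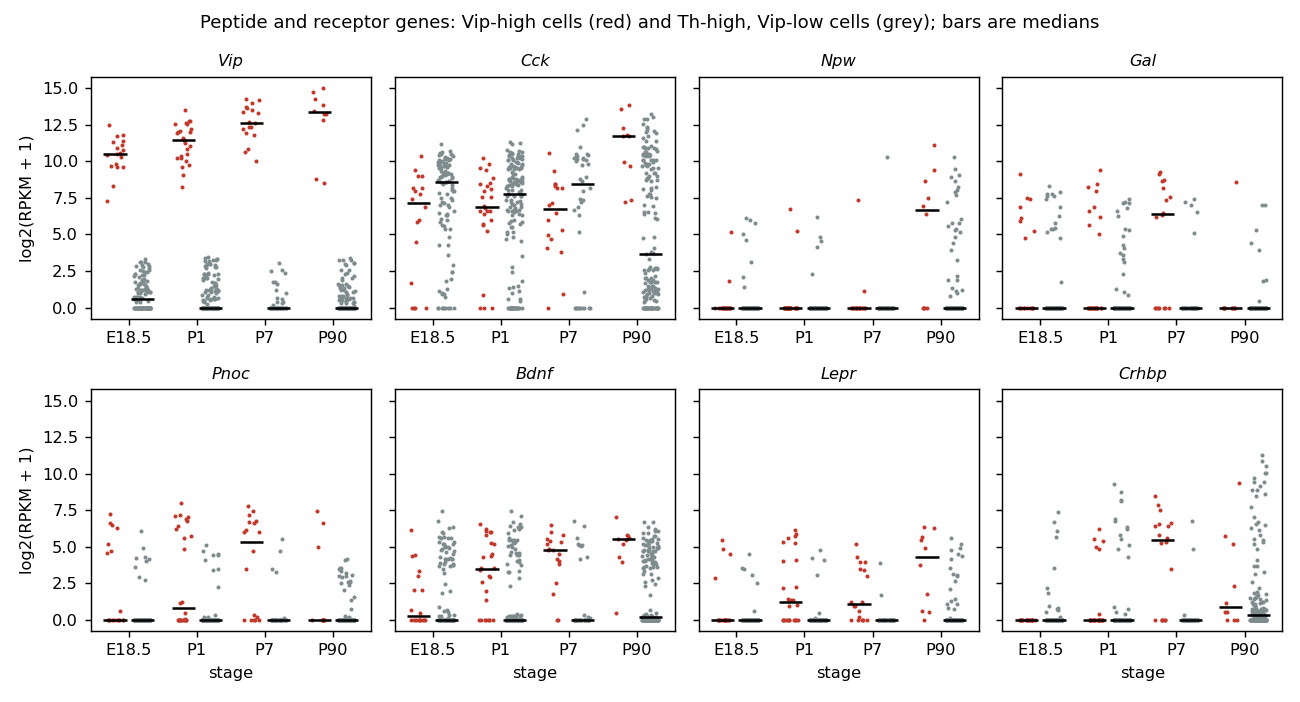
Levels of Vip, other peptide genes, Bdnf and Lepr as log2(RPKM + 1) in each Vip-high cell (red) and each Th-high, Vip-low cell (grey) by stage, with medians as bars. Vip chose both groups. Cck in red had medians of 142.8, 116.7, 108.2 and 3408 RPKM, and Npw was over 10 in 1, 2, 1 and 6 red cells.

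Of 14 genes for prohormone processing and dense-core vesicles, 12 were compared, with Ptprn and Ptprn2 higher at the 3 stages and none lower, where all entries gave 3.19% and 1.63%. These 2 encode membrane proteins of dense-core vesicles, and their medians in members were 38.7, 47.8, 119.02 and 225.7 and 32.9, 53.6, 49.98 and 58.9 RPKM, against 16.97, 21.8, 24.6 and 86.8 and 12.2, 10.1, 16.2 and 40.1. Pcsk1, a prohormone convertase, was over 10 in 5.56%, 7.69%, 61.1% and 80% of members and 13.6%, 12.4%, 12.5% and 50.3% of Th-high cells. The convertase Pcsk2 and carboxypeptidase E (Cpe) were present in most cells of both groups, Pcsk2 in 83.3%, 80.8%, 94.4% and 100% and 80.9%, 71.03%, 62.5% and 92.7%. Scg2, a granin precursor, was detected in nearly all cells at lower levels in perinatal members, with medians of 269.9, 260.2, 437.96 and 1953 and 1344, 1335, 1045 and 2422, but its P7 log2 difference was 0.09 without the paired cells.

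Among the 18 receptors and accessory proteins of the secretin family, 4 were compared, and Gipr was higher while Adcyap1r1 was lower (3.19% and 1.63% of all entries). Adcyap1r1, the receptor for PACAP, was over 10 in 22.2%, 23.1%, 22.2% and 40% of members and 81.8%, 79.3%, 77.5% and 74.5% of Th-high cells. Its mean difference over the 3 stages went from -57.04 to -34.2 points (-41.9 to -21.2) at a limit of 50. Vipr1 and Vipr2, the receptors for vasoactive intestinal peptide itself, were over 10 in 0, 0, 0 and 0 and in 0, 0, 0 and 1 members at the 4 stages, and in 0.909%, 0%, 0% and 0.606% and 0.909%, 0%, 2.50% and 3.03% of Th-high cells. Of 28 genes of cyclic AMP signalling, 16 were compared, and 1 was higher at the 3 stages, beside 3.19% of all entries. This was Prkar2b, a regulatory subunit of protein kinase A with medians of 142.3, 283.6, 252.6 and 96.7 against 80.6, 74.1, 79.1 and 24.2. Gnas, the stimulatory G protein subunit, had medians of 268.3, 320.9, 559.5 and 508.3 and 153.5, 139.5, 154.4 and 188.02. Of 12 protein kinase C and D genes, 4 were compared and Prkcd alone was past 1 log2 unit at the 3 stages, in the direction taken by 3.19% of all entries. In threonine and glycine metabolism, 5 of 10 genes were compared and Tdh alone was, with the same share of all entries. Gipr, Prkcd and Tdh are the markers given above, so their calls here add no independent evidence. Gcat, which acts after Tdh, was over 10 in 33.3%, 11.5%, 16.7% and 20% of members and 14.5%, 6.90%, 12.5% and 14.5% of Th-high cells.

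Of 36 neuromodulator receptors, 11 were compared, with Drd2 and Sstr1 higher at the 3 stages and Chrna4, Chrna6 and Chrnb3 lower, beside 3.19% and 1.63% of all entries. Sstr1, a somatostatin receptor, was over 10 in 55.6%, 50%, 55.6% and 50% of members and 15.5%, 8.97%, 10% and 10.9% of Th-high cells, a mean difference of 42.2 percentage points (29.1 to 53.7), which was 14.9 points (7.44 to 27.1) for an RPKM over 50 and 24.6 points (13.4 to 40.7) with the second E18.5 plate alone. The leptin receptor Lepr was over 10 in 16.7%, 30.8%, 27.8% and 60% and 2.73%, 2.07%, 2.50% and 4.85%, a mean difference of 22.6 percentage points (13.8 to 35.2) and of 55.2 points (26.1 to 78.5) at P90. The 3-stage difference of Lepr depended on the detection limit, with 37.9 points (26.7 to 49.9) for an RPKM over 1 and 3.85 points (-0.26 to 13.97) for one over 50, where the interval includes 0. Mc4r, a melanocortin receptor, was over 10 in 2, 2, 1 and 4 members, and at P90 in 3.03% of Th-high cells. The neurotrophin Bdnf was over 10 in 16.7%, 50%, 77.8% and 90% of members and 37.3%, 23.4%, 22.5% and 37.6% of Th-high cells, with a difference of -20.6 points (-34.9 to 3.48) at E18.5 and of 52.4 points (21.1 to 63.2) at P90. Its receptor Ntrk2 was lower at the 3 stages together with Gfra1, Nrp1, Epha5 and Ntn1, 5 of 15 compared among 22 genes of growth and guidance, with none higher (all entries: 1.63% lower, 3.19% higher). Without the paired cells Ntrk2 stood at -0.71 log2 units at P7. The mean difference in share of Gfra1 then went from -11.9 to -8.97 points (-23.4 to 5.04), an interval that includes 0. With the paired cells left out, the P7 shares over 10 in members and Th-high cells were 68.8% and 0% for Crhbp, 68.8% and 25% for Pcsk1, and 87.5% and 25% for Bdnf.

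Of 24 ion channel genes linked to the firing of dopamine neurons, 13 were compared, with Kcnip4 higher and Kcnip1, Cacna1e and Kcnab1 lower at the 3 stages, against 3.19% and 1.63% of all entries. Kcnip4 and Kcnip1 encode partners of A-type potassium channels, with medians of 225.7, 188.5, 180.9 and 353.2 and 0.757, 0.433, 0.288 and 0.965 RPKM in members and 84.1, 98.5, 80.6 and 94.2 and 44.8, 36, 31.9 and 26.1 in Th-high cells. Kcnn3, a calcium-activated potassium channel, was over 10 in 16.7%, 38.5%, 83.3% and 20% of members and 77.3%, 73.8%, 65% and 53.3% of Th-high cells. For transmitters other than dopamine, the glutamate transporter Slc17a6 was over 10 in 55.6%, 50%, 61.1% and 50% of members and 52.7%, 57.2%, 47.5% and 84.2% of Th-high cells, with a difference of -34.2 points (-61.01 to -7.15) at P90. Only 36.97% of the P90 Th-high cells had Slc6a3 over 150, and the part of those with less in this difference was not tested. Gad2 was over 10 in 0, 1, 0 and 1 members and the GABA transporter Slc32a1 in 0, 1, 0 and 1. None of the 15 immediate early genes was past 1 log2 unit at the 3 stages among 4 compared, beside 3.19% and 1.63% of all entries.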

How the data were processed

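Single cells were sorted, and each became a Smart-seq2 library. According to the labels and the study's methods, reads were aligned to mm10 with STAR, and the authors deposited for each cell read counts per gene and RPKM values made with rpkmforgenes. The deposited counts gave each cell's reads and the genes detected, and the deposited RPKM values, corrected for gene length and sequencing depth, gave all levels. No spike-in values were used here. The members, the gene lists and the rule for the named genes were chosen with earlier results of these data known.

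No animal is named, so 1 stage is 1 sample and no test was run. A gene was called detected over an RPKM of 10, with limits of 1 and 50 as alternatives. Shares have exact (Clopper-Pearson) 95% intervals and their differences Newcombe intervals, and a share of 0 also has the limit of 3 counts over the cells. Levels were compared as means of log2(RPKM + 1), for entries with a mean RPKM of at least 10 in either group at each of E18.5, P1 and P7. The named genes were the 15 in each direction with the largest smallest difference over these 3 stages, besides members of the lists, and 1 of them is not reported here. Cells deposited at 2 stages were found by a correlation over 0.9. Steps were tested on simulated counts without cell-to-cell variation in expression and with separate cells at each stage. These data have both that variation and shared cells, which the simulation did not cover. Python 3.11.15, numpy 2.4.6, pandas 2.3.3, scipy 1.17.1 and matplotlib 3.10.9 were used. Probe targets were placed on GRCm38.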

Additional observations from a re-analysis of the deposited data

Results flagged for a closer look

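Cells of homozygous P1 mice, which have no working Pitx3, entered no comparison above, and Vip-high cells were found among them. Vip was over an RPKM of 150 in 8 such cells, or 4.278% of them (1.87 to 8.26), beside 8.15% of the heterozygous P1 cells. The difference, homozygous minus heterozygous, was -3.87 points (-7.97 to 0.805), and against the heterozygous cells with spike-in it was -4.23 points (-11.9 to 1.48), so that both intervals include 0. Vip in these 8 cells ran from 167.6 to 6367 RPKM with a median of 348.01, and Th ran from 17.9 to 2140 with a median of 851.8. The median of Vip in heterozygous P1 members was 2874. Gipr was over 10 in 6 of the 8, Tdh in 4 and Prkcd in 2, and Id4, Pou2f2, Lmo3, Ebf1, Dlk1 and Calb1 each in 7. Chrna6 and Aldh1a1 were over 10 in none. Slc6a3 and Slc18a2 were over 10 in 2 cells each, and Ddc in 6. Among the 76 homozygous cells with Th over 150 and Vip of 10 or less, Gipr was over 10 in 9.21%, Tdh in 10.5%, Prkcd in 3.95%, Id4 in 26.3%, Pou2f2 in 32.9%, Ebf1 in 31.6%, Lmo3 in 53.9%, Calb1 in 73.7%, Dlk1 in 76.3%, Chrna6 in 59.2%, Aldh1a1 in 39.5%, Slc6a3 in 42.1%, Slc18a2 in 73.7% and Ddc in 85.5%.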

How the results depend on the processing

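No paired analysis was possible because each stage counts as 1 sample and no test was run. The share of entries past 1 log2 unit at the 3 stages depended on the settings. The 3.19% of entries that were higher became 7.96% with a pseudocount of 0.1, 0.586% with one of 10, 7.52% leaving out E18.5 and 7.92% leaving out P1. The 1.63% that were lower became 0.534% with a pseudocount of 10 and 2.89% leaving out P7. Subtracting the stage medians, an alternative chosen after seeing the data, gave 1.78% and 2.81%. With a detection limit of 50 the mean difference was 52.9 points for Tdh and 29.3 points for Prkcd, and 30 of 55 other genes left the interval of their reported value. Leaving out P1 leaves 46 members, by construction. The cause of the other shifts was not tested. Of 990 further values for 55 genes, 929 lay within the interval of the reported value and 61 lay outside it. None of the differences whose interval leaves out 0 changed sign, but some of their intervals came to include 0. This was so in some settings for Gfra1, Prkar2b, Kcnip4, Cnr1, Ddc, Foxa2 and Lepr. The difference of Ddc went from -18.2 to -3.37 points (-14.5 to 2.51) for an RPKM over 1. For Nr4a2, Scg2, Slc17a6 and Slc6a3, whose intervals include 0, 17 values had the other sign. All 15 named higher genes stayed past 1 log2 unit in every setting run except a pseudocount of 10 (14), and all 15 named lower genes except without the P1 and P7 cells of the numbers that hold the pairs (14). That setting and the one without the paired cells were also chosen after seeing the data. With 10 members at P90, differences in share have wide intervals, as for Gipr (24.8 to 77.3 points).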
